A study of Mus musculus with 31 samples.

Results

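The cells described here are the non-mesenchymal cells of the neonatal pancreas, sorted on postnatal day 2 from C57BL/6 animals whose mesenchyme had lost Igf2 and from their controls. They account for 7 of the 31 samples of the series, 3 from mutants and 4 from controls, and were chosen by the group named in the labels. The mutants are labelled Igf2+/fl; Nkx3.2Cre/+ and the controls Igf2+/+; Nkx3.2Cre/+, so that both groups carry the Nkx3.2-Cre allele and only the mutants carry the floxed Igf2 allele. Nkx3.2-Cre recombines in the pancreatic mesenchyme. The pancreata were dissociated with trypsin-EDTA, and the YFP-negative, non-mesenchymal fraction was collected by flow cytometry, so the cells measured are not those in which the deletion is driven. RNA was amplified before sequencing, and the level of each gene was given as FPKM. By its usual definition this is the fragments per kilobase of transcript, scaled to the mapped fragments of the library. Which scaling between libraries was applied is not given in the sources used here. The labels do not say whether replicates of a group are separate animals, so p-values measure only the spread between these samples, which may be technical.

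The pancreas at this age consists mainly of exocrine tissue. Acinar cells make digestive enzymes, most of them as inactive zymogens that are packed into granules and released into the ducts, and their secretory genes are driven together by a small set of transcription factors that includes PTF1A with RBPJL, and NR5A2. Islet cells make hormones, duct cells line the draining tubes, and blood, endothelial and nerve cells pass through the same sort gate. Igf2 encodes a secreted growth factor that is expressed from the paternal allele and is made at high levels by embryonic and neonatal mesenchyme. It signals through the IGF1 receptor and the insulin receptor to the PI3K, AKT and mTOR kinases and to the ERK pathway, while the IGF2 receptor removes it from the extracellular space.

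The libraries detected 19199 to 20918 genes each. The libraries carried the genes of the sorted tissue: summed over the list, islet hormones held 9369 to 24986 FPKM, and the chymotrypsinogen gene Ctrb1 alone 25717 to 86750 FPKM. Mesenchymal genes were low. The collagen gene Col3a1 averaged 26.8 ± 10.3 FPKM in the mutant libraries (SD, n = 3) and 28.7 ± 11.2 FPKM in the controls (SD, n = 4), against 1401 FPKM in the control mesenchymal cells of the other model of the series, a table normalised separately. Among the defining mesenchymal transcription factors, Nkx3-2 was at 0 in mutant 3 and control 3 and at or below 2.24 FPKM in every other library. In 2 libraries the makeup of the minor cell types stood apart. Mutant 2 held 293 FPKM over the 7 lymphocyte markers, against 23.1 to 119 FPKM in the other libraries. Control 1 held 4217 FPKM over the erythroid list, against 604 to 1782 FPKM elsewhere, and the lowest endothelial sum, 25.2 FPKM. Values without those 2 libraries are therefore also given for the acinar lists, the lymphocyte markers, Igf2 and the genes past the adjusted threshold.

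Igf2 itself (GRCm38 chr7:142650766-142666816, minus strand) was measured at 65.2, 25.0 and 146 FPKM in the mutant libraries and at 78.3, 144, 80.2 and 71.5 FPKM in the controls. The groups overlapped, with the lowest and the highest of the 7 values both in mutant libraries. The log2 difference, computed on log2(FPKM + 1) as all log2 values here, was -0.52 ± 0.57 (SE), with a 95% interval of -1.86 to 0.82 and an exact permutation p of 0.4, two-sided. Leaving out mutant 2, the lowest library, turned the sign, to 0.12. H19, the neighbouring imprinted non-coding RNA, stood at 62.3, 49.9 and 144 FPKM in mutants and at 101.4, 123, 81.0 and 88.1 FPKM in controls, a log2 difference of -0.34 ± 0.37 (SE; exact permutation p = 0.486), which ran from -0.79 without mutant 3 to -0.04 without mutant 2. Since these are not the cells in which the deletion is driven, the values do not check it, and the mesenchymal cells of this model were not analysed here. In the control mesenchymal cells of the other model's table, Igf2 averaged 3849 FPKM.

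Across the transcriptome, 17441 genes were tested with limma, all those averaging 1 FPKM or more. After Benjamini-Hochberg adjustment 11 genes (0.0631%) passed 0.05, and each of them was a short or unannotated RNA listed at 0 in all libraries of a group. They are described at the end. Of the 15626 genes with a transcript that is 200 nt or longer, 0 (0.0%) passed, and the lowest adjusted p was 0.214. At an unadjusted p under 0.05, the limma fit gave 401 of these longer genes higher (2.57%) and 379 lower (2.43%) in the mutant libraries. With the median-ratio scaling these counts were 483 and 297. No longer gene described below passed the adjusted threshold, and differences between groups are given as values, with an exact permutation p over the 7 libraries for single genes.

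The genes of acinar secretion were higher in the mutant libraries as a block. The 4 lists of acinar products (proteases, lipases with amylases and nuclease, granule and surface proteins, and the Reg family) have 46 measured members, of which 41 had enough signal to be tested. All 41 had a higher mean log2 level in the mutants, where 47.1% of all genes tested did. Of the 41, Reg2 and Pnlip averaged 0.343 and 0.531 FPKM in the controls. These 2 passed the 1 FPKM filter only through the mutant libraries, so the filter favoured their direction. In 36 of the 41 every mutant library lay above every control library, which was the case for 2.65% of all genes. Genes that are driven together can vary together, so counts over the 41 do not stand for independent comparisons. The lists were also chosen with earlier results known. An unadjusted p under 0.05 in the higher direction was reached by 37 of the 41, against 2.91% of all genes, and 0 passed the adjusted threshold (lowest adjusted p = 0.295 in limma). The median log2 difference was 1.22 (range 0.58 to 3.02), beside -0.03 over all genes tested, and 33 genes were at least 2-fold higher by their group means. The upper end of the range is Reg2, with its low control level, and the next highest was Reg1 at 1.68. Without mutant 2 and control 1, 30 of the acinar product genes had an unadjusted p under 0.05, and the list medians were 1.14 for proteases, 0.85 for lipases with amylases and nuclease, 1.12 for granule proteins and 1.15 for the Reg family. In such bulk measurements more acinar cells and more enzyme RNA per acinar cell cannot be told apart.

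Ctrb1, the gene of chymotrypsinogen B and the most abundant of these transcripts (ENSMUSG00000031957, GRCm38 chr8:111686519-111691010, minus strand), was measured at 86436, 86750 and 75462 FPKM in the mutant libraries and at 27356, 37042, 35376 and 25717 FPKM in the control libraries. The lowest mutant value lay far above the highest control value. The means were 82882 ± 6429 FPKM (SD, n = 3) and 31373 ± 5665 FPKM (SD, n = 4), a ratio of 2.64 and a log2 difference of 1.42 ± 0.30 (SE; limma p = 0.00189, adjusted p = 0.639; exact permutation p = 0.0286, the smallest that 3 against 4 libraries allow). Expressed as a share of the FPKM of all nuclear protein-coding genes, Ctrb1 made up 15.9 to 17.6% of the mutant libraries and 6.49 to 9.23% of the controls. All acinar products together made up 23.9 to 26.5% in the mutants and 9.90 to 14.8% in the controls. With Ctrb1 left out of both sums, the shares were 8.95 to 11.2% and 3.64 to 6.19%. The groups stayed apart in each of these shares.

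The other proteases lay in the same range. All 16 tested members of the list were above every control in every mutant library, with a median log2 difference of 1.28 (1.01 to 1.49). Cela2a, which encodes a pancreatic elastase, was measured at 2494, 3917 and 4359 FPKM in mutants and at 1327, 2082, 1582 and 1108 FPKM in controls. Cpa1, a carboxypeptidase, stood at 1449, 1827 and 1396 FPKM against 544, 868, 817 and 525 FPKM. The carboxypeptidase gene Cpb1 had the smallest difference of the list, with 4424, 5468 and 3618 FPKM against 1797, 2604, 3160 and 1596 FPKM, and a gap between mutant 3 and control 3 that was small beside the spread within each group. Klk1, a kallikrein, averaged 300 ± 41.1 FPKM in the mutant libraries and 120 ± 31.7 FPKM in the controls, a log2 difference of 1.34. Cela3a, given in the table under the symbol Gm13011, was at 0 in 6 libraries and was not tested.

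The trypsinogen genes Prss1, Prss2, Prss3, Try4, Try5 and Try10 lie in 1 cluster on chromosome 6 and are close copies of each other, so the split of reads among them is uncertain. Their log2 differences ran from 1.07 for Prss2 to 1.49 for Prss3 and Try10. Prss3 had 299, 467 and 308 FPKM in the mutant libraries and 133, 123, 149 and 97.0 FPKM in the controls, and with Try10 the lowest adjusted p of the acinar lists, 0.295 in limma. Prss2, the most abundant of the 6, had 1347, 2330 and 1856 FPKM against 861, 910, 940 and 729 FPKM. No control library reached the lowest mutant library for any of the 6.

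**Figure D1:**
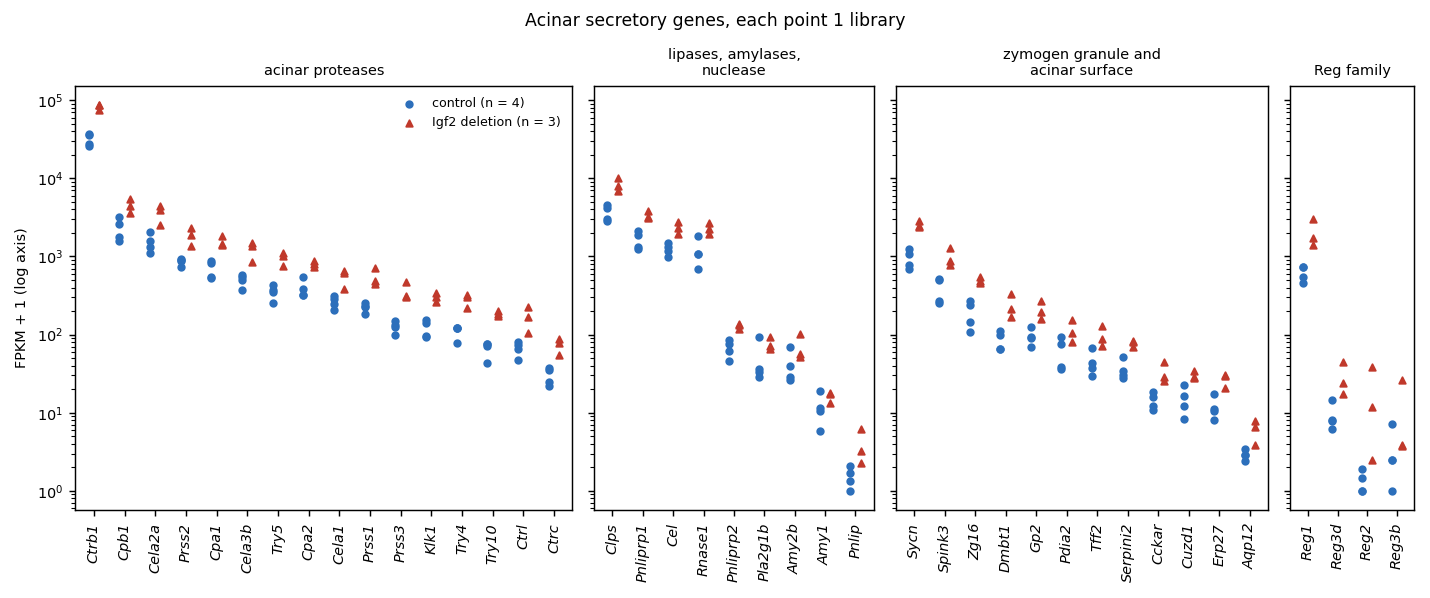
FPKM + 1 on a log axis for genes of the 4 acinar product lists in each library (circles for 4 controls, triangles for 3 Igf2 deletion libraries). In 36 of the 41 tested genes all triangles lie above all circles.

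Because these genes had higher levels together, the sequence next to the start site is shown for the 4 with the highest mean FPKM that have an entry in the RefSeq table, as 250 bases before the start in GRCm38.p6. Capitals mark matches to CACCTG, an E-box of the kind that basic helix-loop-helix proteins such as PTF1A bind, and to TTTCCC, the core bound by RBPJ and RBPJL, on either strand (CAGGTG and GGGAAA are the same motifs read on the other strand). The nuclear receptor motif AGGTCA was also searched and does not occur in these 4 windows.
Ctrb1, chr8:111691011-111691260, minus strand: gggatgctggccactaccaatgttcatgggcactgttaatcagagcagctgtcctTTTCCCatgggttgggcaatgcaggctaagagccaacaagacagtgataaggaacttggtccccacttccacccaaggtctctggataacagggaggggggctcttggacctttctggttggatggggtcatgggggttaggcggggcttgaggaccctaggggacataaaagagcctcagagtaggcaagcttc
Cpb1, chr3:20275734-20275983, minus strand: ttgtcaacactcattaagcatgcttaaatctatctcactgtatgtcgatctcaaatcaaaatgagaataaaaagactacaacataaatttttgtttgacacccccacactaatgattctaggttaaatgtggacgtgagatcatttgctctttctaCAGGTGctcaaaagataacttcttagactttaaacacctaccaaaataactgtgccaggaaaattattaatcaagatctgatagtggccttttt
Cela2a, chr4:141826006-141826255, minus strand: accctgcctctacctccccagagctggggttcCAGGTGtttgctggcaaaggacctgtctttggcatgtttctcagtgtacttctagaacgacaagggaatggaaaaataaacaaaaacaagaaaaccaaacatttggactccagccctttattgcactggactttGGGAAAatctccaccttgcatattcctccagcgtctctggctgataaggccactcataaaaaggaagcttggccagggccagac
Pnliprp1, chr19:58728637-58728886, plus strand: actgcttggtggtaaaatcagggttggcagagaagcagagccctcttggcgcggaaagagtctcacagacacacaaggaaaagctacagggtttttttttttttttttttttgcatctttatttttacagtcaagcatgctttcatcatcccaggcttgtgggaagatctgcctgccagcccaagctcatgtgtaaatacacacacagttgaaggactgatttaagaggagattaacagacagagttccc
The windows differ in these letters. Ctrb1 has a TTTCCC match beginning 195 bases before the start, Cpb1 a CACCTG match at 94 bases, and Cela2a has both, at 218 and 84 bases. The Pnliprp1 window holds none of the 3 motifs, and no motif is in all 4 windows. Pnliprp1 differed between groups by a log2 of 1.06 and Cpb1 by 1.01. Over the 36 promoter entries found for 35 of the 46 acinar genes, CACCTG occurred in 22 (61.1%), TTTCCC in 12 (33.3%) and AGGTCA in 8 (22.2%), beside 17.2%, 21.9% and 14.02% of all 32851 promoters of the table. The TATA-like hexamer TATAAA, searched after the other motifs had been counted, was in 15 of the 36 (41.7%) and in 12.4% of all. A match is a string of letters and not a measured binding site, and entries of gene copies that lie side by side are not independent.

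Among the enzymes that act on fats, starch and RNA, 6 of the 9 tested genes were above every control in every mutant library, with a list median of 1.00. Clps encodes colipase, the cofactor of pancreatic lipase, and was measured at 7954, 9990 and 6924 FPKM in mutants and at 2981, 4193, 4579 and 2839 FPKM in controls. Pnliprp1, a lipase-related protein, stood at 3190, 3790 and 3117 FPKM against 1246, 1893, 2125 and 1337 FPKM. Cel, carboxyl ester lipase, stood at 1950, 2781 and 2329 FPKM against 1302, 1158, 1482 and 986 FPKM. All mutant libraries lay above all controls in these 3 genes and also in Pnliprp2, Rnase1 and Pnlip. Pnlip, pancreatic lipase itself, was barely expressed at this age, with 5.20, 2.26 and 1.30 FPKM against 0.329, 0.714, 1.08 and 0 FPKM.

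The members of that list whose groups overlapped were the amylases and Pla2g1b, a secreted phospholipase. Amy2b was at 101.04, 55.6 and 50.2 FPKM in mutants and at 28.0, 38.1, 69.2 and 25.5 FPKM in controls, a log2 difference of 0.81 ± 0.40 (SE; exact permutation p = 0.171). Amy1, expressed also outside the pancreas, had the smallest difference of all acinar products, 0.58 ± 0.38 (SE). Amylase genes too are near-identical copies whose reads may be split, and GENCODE has this Amy2b row (ENSMUSG00000083079) as an unprocessed pseudogene. For Pla2g1b the overlap came from 1 library, control 2, at 92.6 FPKM, while the other controls were at 27.5 to 35.7 FPKM and the mutants at 63.6 to 91.5 FPKM.

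The proteins of the zymogen granule and the acinar cell surface gave 11 of 12 genes with every mutant above every control and a median of 1.16. Sycn, which encodes the granule membrane protein syncollin, was measured at 2809, 2355 and 2470 FPKM in mutants and at 771, 1242, 1087 and 693 FPKM in controls, a log2 difference of 1.46 ± 0.24 (SE; exact permutation p = 0.0286; limma adjusted p = 0.398). Zg16, a granule matrix lectin, stood at 490, 459 and 542 FPKM against 144, 265, 236 and 108 FPKM. Spink3, the secreted trypsin inhibitor, had 778, 1282 and 880 FPKM against 251, 518, 492 and 265 FPKM. Genes of the list with low levels had ratios of similar size. Cckar, the cholecystokinin receptor through which acinar secretion is triggered, was at 24.7, 27.5 and 43.3 FPKM in mutants and at 11.2, 17.2, 15.1 and 9.92 FPKM in controls. Pdia2, a pancreatic protein disulfide isomerase, was the member whose groups overlapped, with 79.3, 104 and 153 FPKM against 35.8, 73.9, 92.0 and 37.9 FPKM.

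The Reg family encodes secreted lectins, some of which are made by acinar cells and are known to be induced in pancreatic injury. Reg1 was measured at 1393, 2999 and 1746 FPKM in mutants and at 455, 728, 742 and 546 FPKM in controls (log2 1.68 ± 0.31, SE; exact permutation p = 0.0286; limma adjusted p = 0.582), and its log2 difference was 1.36 without mutant 2. Reg3d stood at 16.6, 43.3 and 23.0 FPKM against 5.11, 13.6, 6.90 and 7.02 FPKM. Reg2 was at 1.46, 37.9 and 10.97 FPKM against 0, 0.467, 0 and 0.904 FPKM, and its log2 difference of 3.02 ± 0.87 (SE) rests on low control values. Reg3b overlapped between groups, with 25.3 FPKM in mutant 2 and 2.78 and 2.92 FPKM in the other mutants. In all 4 tested members mutant 2 was the highest of the 7 libraries, and without mutant 2 and control 1 the median of this list was 1.15 in place of 1.65. Reg3a, Reg3g and Reg4 were too low to be tested.

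The transcription factors of acinar identity had a median near 0. Of 9 tested, 5 were higher and 4 lower, with a median log2 difference of 0.02 (0.09 without mutant 2 and control 1, and -0.20 to 0.25 when 1 library was left out), and 0 had every mutant library above every control. Ptf1a was low, at 1.74, 1.52 and 2.33 FPKM in mutants and 2.58, 4.92, 1.05 and 0.907 FPKM in controls. Rbpjl, its partner in mature acinar cells, was at 24.2, 22.3 and 64.3 FPKM against 12.8, 29.7, 15.4 and 11.6 FPKM, a log2 difference of 0.97 ± 0.46 (SE; exact permutation p = 0.114; 0.50 without mutant 3) with overlapping groups. Bhlha15, also known as Mist1 and needed for granule organisation, differed by 0.70 ± 0.34 (SE), again with overlap. Gata4 was at 4.70, 9.96 and 6.72 FPKM in mutants and at 3.38, 5.03, 2.64 and 3.04 FPKM in controls, where only mutant 1 fell within the control range.

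Nr5a2, the nuclear receptor that acts with the PTF1A complex on enzyme genes, lay the other way (ENSMUSG00000026398, chr1:136842571-136960448, minus strand; singled out after its values were seen). It was measured at 21.7, 17.5 and 20.98 FPKM in mutants and at 30.0, 33.4, 24.5 and 23.3 FPKM in controls. Every mutant library was below every control library, by a narrow gap, and the log2 difference was -0.44 ± 0.19 (SE; exact permutation p = 0.0571; limma adjusted p = 0.919). Every mutant below every control was the pattern of 3.37% of all genes tested. Gata6 had a log2 difference of -0.37 and Xbp1, the factor that expands the secretory apparatus, one of 0.26, both with overlapping groups.

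**Figure D2:**
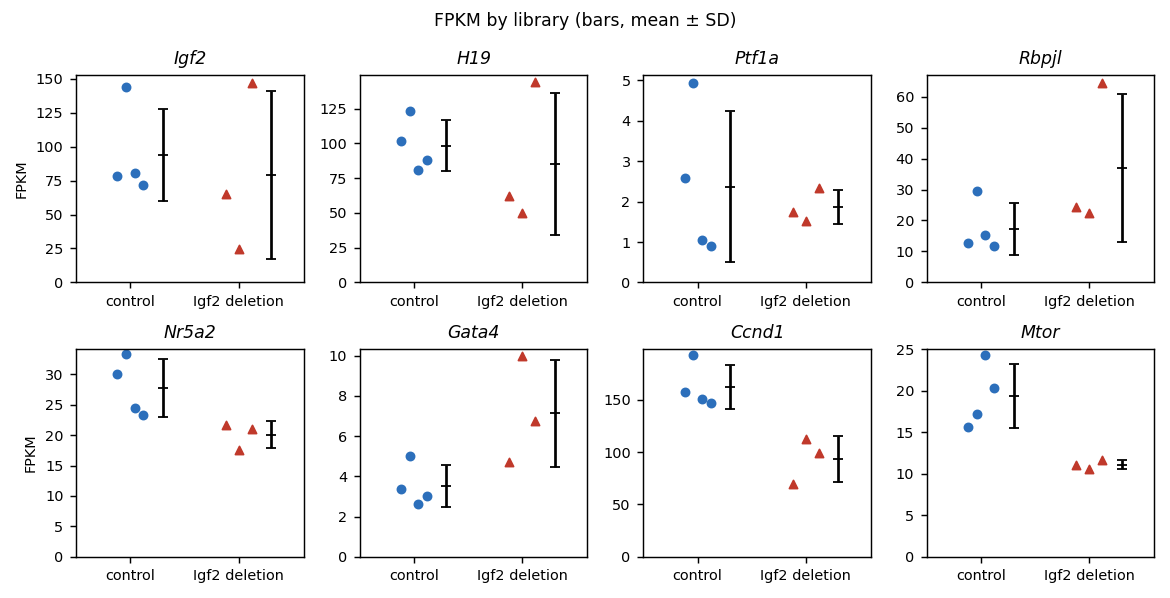
FPKM of Igf2, H19, 4 acinar transcription factors, Ccnd1 and Mtor in each library (circles, controls; triangles, Igf2 deletion), with mean ± SD beside the points. Nr5a2, Ccnd1 and Mtor are the panels in which every mutant library lies below every control library.

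The general machinery of secretion had medians near 0. Of 21 tested genes of protein folding in the endoplasmic reticulum and of the unfolded protein response, 12 were higher and 9 lower, with a median of 0.03 and 0 genes at an unadjusted p under 0.05. In 2 of the 21 every mutant lay above every control (2.65% of all genes): Sdf2l1, at 20.3, 23.9 and 60.3 FPKM against 16.1, 20.2, 18.998 and 13.5 FPKM, and Manf, with a log2 difference of 0.20 ± 0.14 (SE). These 2 were picked out with their values in view. Hspa5, the chaperone BiP, had 439, 341 and 434 FPKM in mutants and 454, 394, 408 and 452 FPKM in controls. Hsp90b1 differed by 0.10 ± 0.16 (SE). Among 26 genes of translocation and signal peptide processing, 15 were higher and 11 lower, with a median of 0.04. Cytosolic ribosomal protein genes had a median between these and the enzymes, 0.37, and 28 of 30 were higher, against 47.1% of all genes tested. In 8 of the 30 every mutant lay above every control (2.65% of all genes), and 7 had an unadjusted p under 0.05 in the higher direction (2.91% of all genes). Rpl32, for example, averaged 1301 ± 190 FPKM in mutants and 949 ± 120 FPKM in controls.

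How FPKM were scaled bears on the size of these values. When the libraries were brought to the same total over the longer transcripts, the median of all genes moved to -0.30, and 131 longer genes were higher and 1696 lower at an unadjusted p under 0.05. Relative to the median of all genes, the acinar product lists together lay at 1.22 under that scaling, 1.25 under the median-ratio scaling and 1.25 as deposited. On the same relative scale the ribosomal protein list lay at 0.35, 0.41 and 0.40. Without that centring, the medians of acinar transcription factors and of both endoplasmic reticulum lists turned negative under the rescaling, at -0.23, -0.28 and -0.26, and so did those given below for lymphocyte markers and for IGF ligands and receptors. Medians of other lists that lie next to 0 can likewise take either sign.

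Of the markers of other cell types in the gate, the list of macrophage and pan-leukocyte genes had 19 of 20 members higher in the mutants, against 47.1% of all genes tested, with a median of 0.46. In 1 of the 20 every mutant lay above every control (2.65% of all genes), and 3 had an unadjusted p under 0.05 in the higher direction (2.91% of all genes). Its summed level was 1570 to 2288 FPKM in mutants and 1058 to 1712 FPKM in controls. Laptm5, a lysosomal protein of blood cells, was at 205, 363 and 262 FPKM against 141, 174, 150 and 179 FPKM, with no overlap (log2 0.75 ± 0.22, SE; exact permutation p = 0.0286, limma adjusted p = 0.919). Lyz2, lysozyme of macrophages, was at 333, 313 and 468 FPKM against 281, 282, 180 and 378 FPKM, with overlap. Granulocyte and mast cell genes had a median of 0.92 that depended on single libraries, at 0.39 without control 3 and at 1.57, above the medians of 3 of the acinar product lists, without control 1. S100a8 ran from 237 to 1246 FPKM in mutants and from 67.7 to 917 FPKM in controls. Erythroid genes were lower in 11 of 11 tested members, with a median of -0.52 and 0 members without overlap. That median was 0.03 without control 1, -0.22 without mutant 3 and -0.94 without control 3. Lymphocyte markers had a median of 0.18 that became -0.63 without mutant 2 and control 1 and ran from -0.67 without mutant 2 to 0.995 without mutant 3. The part of these cell types in the acinar differences was not tested.

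**Figure D3:**
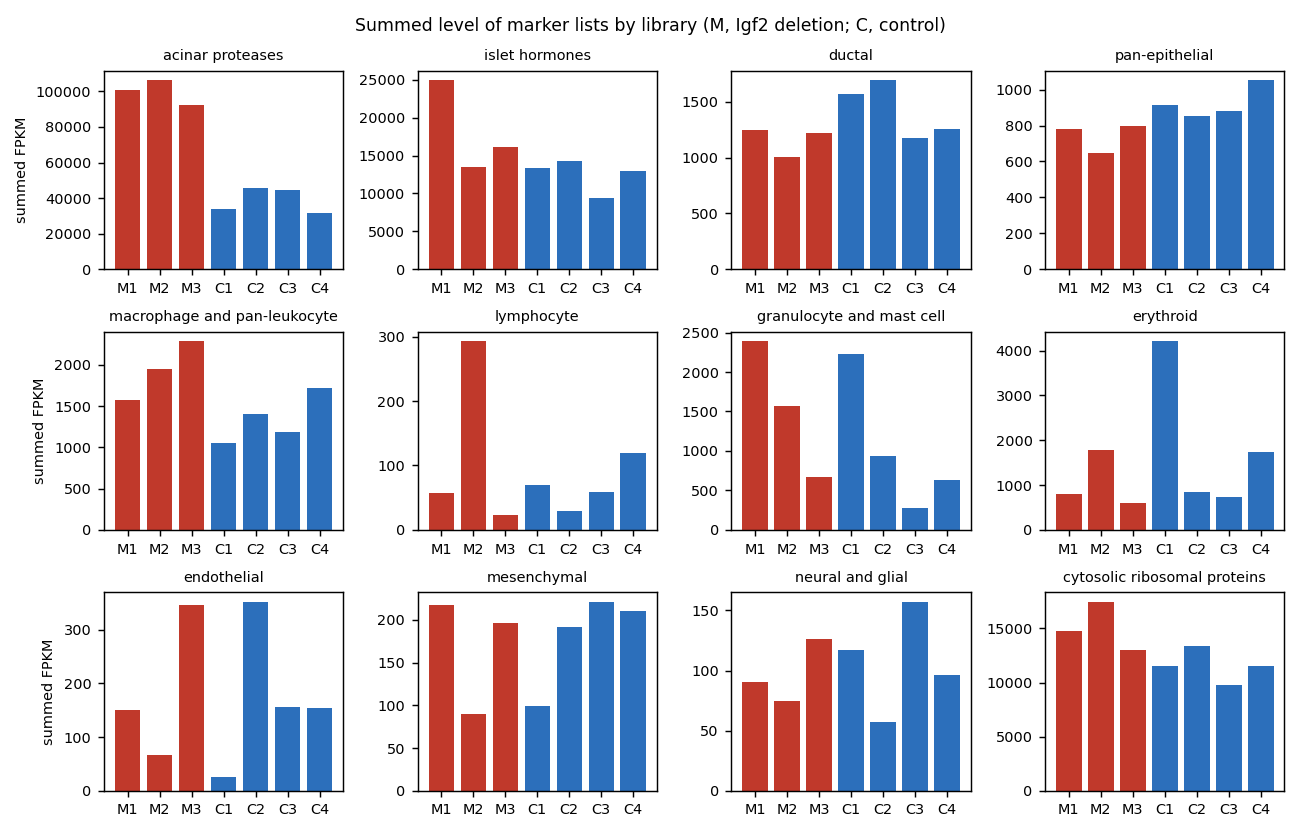
Summed FPKM of marker lists in each library (M1 to M3, Igf2 deletion; C1 to C4, control), on axes that start at 0. The tall bars of lymphocyte markers in M2 (293 FPKM) and of erythroid markers in C1 (4217 FPKM) show the 2 libraries that stood apart.

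Endothelial, nerve and mesenchymal markers overlapped between the groups. Their medians were -0.02 over 15 tested genes, -0.20 over 10 and -0.15 over 12, and 0 members of the 3 lists were without overlap. Each of these 3 medians took either sign when 1 library was left out. Pecam1, of endothelial junctions, was at 17.8, 21.1 and 28.4 FPKM in mutants and at 6.81, 28.0, 24.0 and 29.6 FPKM in controls. Of the 6 mesothelial markers, 2 had enough signal to be tested.

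Islet hormone genes were higher on average in all 8 cases, with a median of 0.48 (0.30 without mutant 1), but 0 of them separated the groups and 0 had an unadjusted p under 0.05. Ins2, which encodes preproinsulin, was at 7288, 2964 and 5110 FPKM in mutants and at 2483, 6217, 2137 and 3217 FPKM in controls. Gcg, the glucagon gene, was at 4386, 2553 and 1127 FPKM against 2157, 812, 536 and 1337 FPKM, a log2 difference of 1.14 with an interval of -0.29 to 2.56. Both hormones spread more than 2-fold within each group, so the data leave room for differences in either direction. Islet transcription factors had a median of -0.03, and Nkx2-2 and Pax6 differed by 0.22 ± 0.30 and -0.03 ± 0.27 (SE).

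Duct and general epithelial genes had medians below 0. Of 13 ductal genes 10 were lower, with a median of -0.21, and of 7 pan-epithelial genes 6 were lower, with a median of -0.26, where 52.9% of all genes tested were lower. Epcam, the epithelial cell adhesion molecule, was at 150, 107 and 146 FPKM in mutants and at 164, 218, 160 and 209 FPKM in controls, with no overlap (log2 -0.48 ± 0.19, SE; exact permutation p = 0.0571, limma adjusted p = 0.919). Spp1, osteopontin, which is made by duct cells, was at 703, 590 and 693 FPKM against 925, 1025, 734 and 719 FPKM, also without overlap, as in 3.37% of all genes. The 1 ductal gene with an unadjusted p under 0.05 in limma was higher in the mutants, as 2.91% of all genes were. It was Mmp7, a secreted matrix protease (named after its values were seen), at 10.98, 0.628 and 1.17 FPKM against 0.16, 0, 0 and 0 FPKM, with every mutant above every control (2.65% of all genes; log2 1.75 ± 0.72, SE; exact permutation p = 0.0286, limma adjusted p = 0.919). Mmp7 passed the filter of 1 FPKM only through the mutant libraries, mainly mutant 1. Its p-values and its separation of the groups are therefore not independent of that selection. Krt19, the duct keratin, overlapped, with 82.8, 66.7 and 109 FPKM against 80.0, 80.4, 108 and 123 FPKM. The ductal median was -0.10 without mutant 2, -0.40 without mutant 1 and -0.35 without control 3, and the pan-epithelial median ran from -0.40 to -0.19 when 1 library was left out.

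Of 28 mitotic genes 22 were lower, with a median of -0.24, and of 27 genes of DNA replication 19 were lower, with a median of -0.17, where 52.9% of all genes tested were lower. In 2 of the mitotic genes and 0 of the replication genes every mutant lay below every control (3.37% of all genes). Without mutant 1 the medians were -0.15 and 0.00131, and without control 1 that of DNA replication was -0.07. In each list 1 lower gene had an unadjusted p under 0.05, a share near the 2.37% of all genes. Top2a, the topoisomerase that untangles replicated chromosomes, was at 55.5, 73.6 and 66.2 FPKM in mutants and at 93.1, 80.6, 70.6 and 52.2 FPKM in controls, with overlap. Ccnd1, the gene of cyclin D1, which carries growth factor signals into the cell cycle, had the lowest p of the cell cycle lists (ENSMUSG00000070348, chr7:144929931-144939925, minus strand; singled out after its values were seen). It had 69.7, 113 and 99.0 FPKM in mutants and 158, 193, 151 and 147 FPKM in controls, with no overlap, and a log2 difference of -0.80 ± 0.20 (SE; exact permutation p = 0.0286; limma adjusted p = 0.919). Its partner kinase Cdk4 differed by 0.04 ± 0.17 (SE), and the inhibitor Cdkn1a by 0.35 ± 0.18 (SE).

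In the pathway through which IGF2 acts, the 10 ligands, receptors and adaptors had a median of 0.11 (-0.03 to 0.25 when 1 library was left out) and 0 members without overlap, and Grb10, an imprinted adaptor of the insulin receptor, differed by -0.06 ± 0.20 (SE). Of the 7 tested genes of IGF-binding proteins and IGF2 mRNA-binding proteins 6 were lower, all with overlap. Among 28 kinases and regulators of the PI3K, AKT, mTOR and ERK pathways the median was -0.04, 4 lay below all controls in every mutant library (3.37% of all genes) and 3 of these had an unadjusted p under 0.05, a direction and threshold met by 2.37% of all genes tested. Mtor, singled out like Braf after its values were seen, was at 11.05, 10.6 and 11.6 FPKM in mutants and at 15.7, 17.1, 24.3 and 20.3 FPKM in controls, a log2 difference of -0.73 ± 0.19 (SE; exact permutation p = 0.0286; limma adjusted p = 0.919). Braf, a kinase of the ERK pathway, was at 36.7, 36.4 and 24.0 FPKM against 51.8, 52.5, 43.7 and 51.3 FPKM. Of 26 tested genes of the imprinted list, 12 were higher and 14 lower. In 1 of them every mutant lay above every control (2.65% of all genes) and in 1 below (3.37%). The lower one was Gnas, which encodes a signalling G protein subunit, at 699, 768 and 807 FPKM against 969, 947, 958 and 981 FPKM.

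Of the metabolic lists, glycolytic genes had a median of -0.05, and Gapdh was at 213, 202 and 186 FPKM in mutants and at 208, 244, 160 and 187 FPKM in controls. Of the 17 glycolytic genes 2 were lower at an unadjusted p under 0.05, against 2.37% of all genes tested, and these, Pfkm and Tpi1, lay below all controls in every mutant library, while Gpi1 lay above them. Genes of sterol and fatty acid synthesis had a median of -0.17 (-0.25 to -0.08 when 1 library was left out) with 17 of 25 lower. At an unadjusted p under 0.05, 3 of the 25 were lower (Hmgcs1, Hsd17b7 and Scd2) and 1, Acaca, was higher (2.91% of all genes). These glycolytic and lipid genes, other than Scd2, were named after their values were seen. Among 31 nuclear genes of the respiratory chain, 18 were higher and 13 lower, and Atp5b, the catalytic subunit of ATP synthase, was the one below all controls in every mutant library, a share near the 3.37% of all genes, with 1576, 1672 and 1706 FPKM against 2536, 2332, 2355 and 2497 FPKM (singled out after its values were seen). Transcripts of the mitochondrial genome were higher in 11 of 12 cases, against 47.1% of all genes tested, with a median of 0.27. That median was 0.04 without mutant 1, 0.09 without control 4, 0.44 without mutant 3 and 0.50 without control 2, and it turned to -0.05 when libraries were rescaled to the total of longer transcripts.

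**Figure D4:**
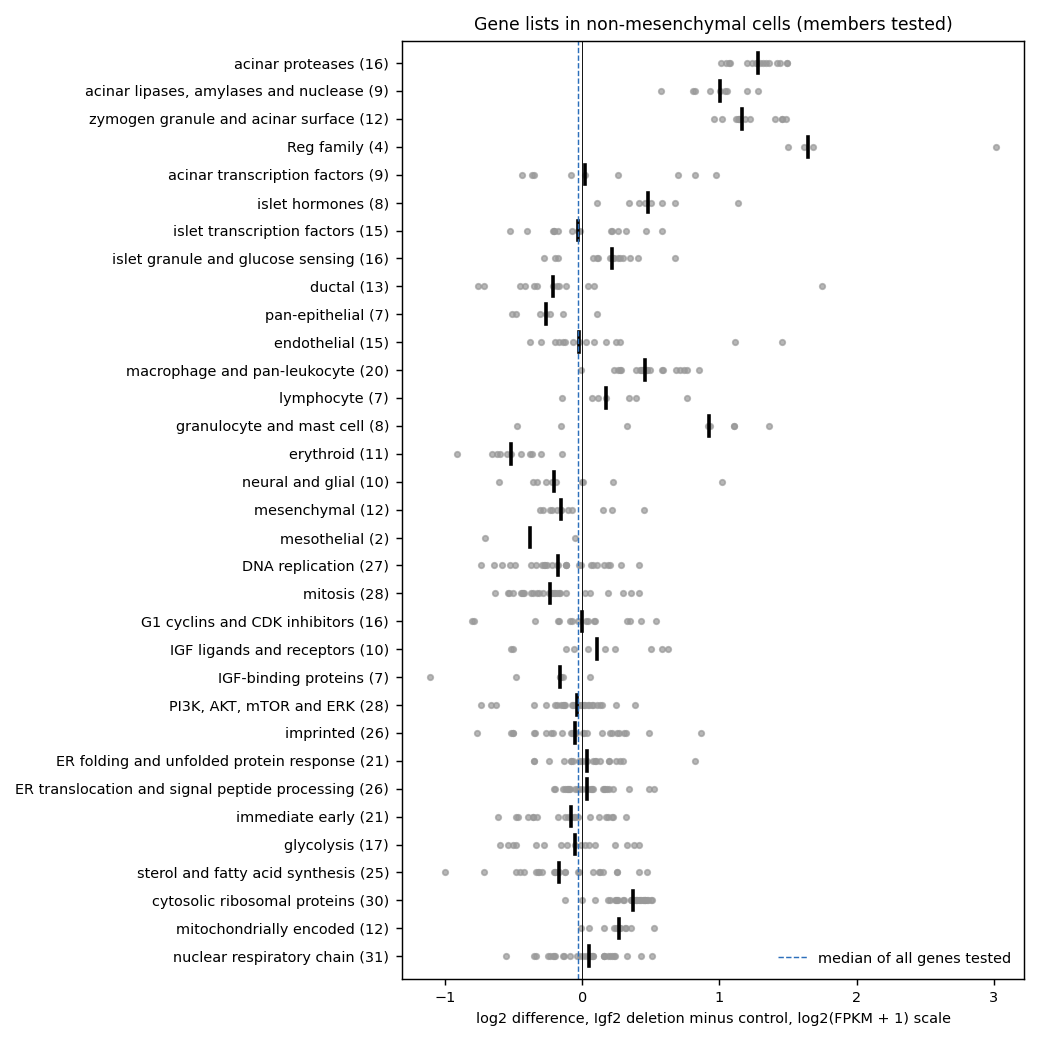
Log2 differences (Igf2 deletion minus control) for the gene lists, with the number of tested genes in brackets, each point 1 gene, and the median of all genes tested as a dashed line at -0.03. The acinar product lists have medians of 1.00 to 1.65, and the next highest is that of granulocyte and mast cell genes at 0.92.

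Among longer protein-coding genes averaging 5 FPKM or more, the 12 with the lowest p in each direction are named. Of the 12 that were higher in mutants, 8 belong to the acinar lists. The others were Lair1, an inhibitory receptor of leukocytes, Fntb, a farnesyltransferase subunit, Snx21, a sorting nexin, and Zfp618, a zinc finger gene. Lair1 was at 11.1, 13.6 and 13.8 FPKM in mutants and at 2.44, 5.19, 3.18 and 3.16 FPKM in controls. Zfp618 was at 77.5, 21.8 and 58.6 FPKM against 9.84, 11.1, 11.1 and 8.40 FPKM, a log2 difference of 2.10 ± 0.41 (SE; limma adjusted p = 0.638). Without mutant 2, its lowest mutant library, it passed the adjusted threshold (limma adjusted p = 0.0088), as the one longer gene to do so there.

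The 12 that were lower had log2 differences of -1.19 to -0.63, and in each of them every mutant library lay below every control, as in 3.37% of all genes tested. In order of p they were Itpa, Ndrg4, Ndrg3, Ifih1, Pkp2, Csrp2bp, Gpld1, Cldn6, Pard6b, Asl, Impad1 and Surf1, and values are given for the first 4. Itpa, the enzyme that clears inosine triphosphate, was at 5.66, 7.26 and 5.48 FPKM in mutants and at 14.02, 13.6, 13.6 and 13.7 FPKM in controls (log2 -1.05 ± 0.17, SE; limma adjusted p = 0.35). Ndrg4 was at 2.02, 2.98 and 3.86 FPKM against 8.89, 7.75, 7.77 and 7.18 FPKM. Its family member Ndrg3 was at 16.2, 20.9 and 26.3 FPKM against 37.2, 38.3, 41.2 and 44.3 FPKM. Ifih1, a cytoplasmic sensor of double-stranded RNA, was at 4.22, 6.93 and 7.07 FPKM against 16.1, 13.8, 11.2 and 13.5 FPKM. The other 8 have unlike roles, among them Cldn6 and Pkp2 in cell junctions, Asl in the urea cycle and Surf1 in the assembly of cytochrome c oxidase. Of the 12, Itpa, Ndrg3, Ifih1, Csrp2bp, Pard6b and Surf1 lie on chromosome 2. Whether that share is unusual was not tested.

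The series holds a second model, in which H19DMD, the region that controls imprinting at this locus, was deleted with the same Cre (4 mutant libraries labelled H19DMDfl/+; Nkx3.2+/Cre and 3 controls used here). Its non-mesenchymal cells carry another identifier in the column labels and were tabulated separately. Effects of model and of batch therefore cannot be told apart, and values are only set side by side. There the 40 acinar product genes tested in both models were higher in 12 and lower in 28 cases, with a median of -0.10, where 56.1% of all genes were higher. Ctrb1 averaged 47417 FPKM in those mutants and 58889 FPKM in their controls, a log2 difference of -0.20 ± 0.42 (SE). It ran from 40476 to 56048 FPKM in those mutants and from 33864 to 93011 FPKM in the 3 controls. Over all libraries of the Igf2 model the range was 25717 to 86750 FPKM. Control libraries alone thus varied widely in the level of this gene. Sycn differed by -0.10 ± 0.45 and Reg1 by -0.12 ± 0.50 (SE). In each of these 3 genes the SE exceeded the difference. Ccnd1 differed by -0.14 ± 0.19 there, and Nr5a2 by 0.37 ± 0.19 (SE).

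**Figure D5:**
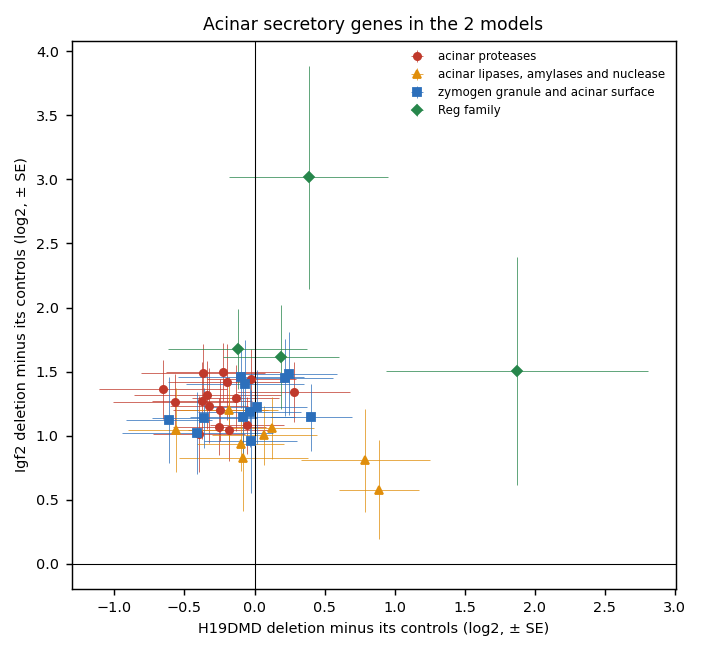
Log2 difference ± SE of each acinar product gene tested in both models, in the H19DMD deletion model (horizontal) and in the Igf2 deletion model (vertical), each against its own controls. All genes lie above 0 vertically, from 0.58 to 3.02, and on both sides of 0 horizontally, with a median of -0.10.

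The 11 features that passed the adjusted threshold in limma were 8 higher and 3 lower in the mutants. The 8 were Mir142, Mir1192, Snord67, features named U6 on chromosomes 12 and 9, AC123043.1, AC132606.1 and AC115697.1, and the 3 were the ribosomal 5S feature n-R5s45, AC140192.1 and AC154229.1. Each was listed at 0 in every library of a group, and annotated transcripts among them measured 83 to 121 nt. Division by such short lengths inflates FPKM, and an exact 0 in these tables can be a failed estimate, so no fold is given. Snord67, a small nucleolar RNA, was at 62.2, 40.3 and 77.1 FPKM in mutants, and n-R5s45 at 55.8, 82.9, 112 and 82.2 FPKM in controls. Without mutant 1, 2 or 3 the number of features past the threshold was 37, 34 or 27, and without control 1, 2 or 4 it was 26, 21 or 23.

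The feature with the lowest p, given in the table as Mir142, had 2783, 3407 and 2901 FPKM in mutants and 0 in all controls. By its identifier (ENSMUSG00000065420, chr11:87756841-87756955, minus strand, 115 nt) it is the hairpin now named Mir142b, which overlaps the hairpin of the blood cell microRNA miR-142a on the plus strand. Whether counting used strand is not given in the sources used here, so the 2 hairpins cannot be told apart. The mature sequences, from RefSeq (GRCm38.p6), show that they read the same locus in opposite directions; capitals mark the seed, bases 2 to 8, and the 3 seeds differ.
mmu-miR-142b: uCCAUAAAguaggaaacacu
mmu-miR-142a-5p: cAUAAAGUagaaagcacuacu
mmu-miR-142a-3p: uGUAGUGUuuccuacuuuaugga
The table lists the feature at the same locus as the longer non-coding host transcript A430104N18Rik (Mir142hg in GENCODE), which was at 193, 237 and 115 FPKM in mutants and at 89.4, 85.0, 130 and 175 FPKM in controls, with overlap (log2 0.60 ± 0.34, SE; exact permutation p = 0.171). The host transcript thus lacked the all-or-none pattern of the short feature within it. In the H19DMD model the short feature was at 0 in all 3 controls and ranged from 0 to 1550 FPKM in the 4 mutants.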

How the data were processed

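RNA-seq of 7 libraries of sorted non-mesenchymal cells (3 mutant, 4 control) was used, with 7 non-mesenchymal and 3 mesenchymal control libraries of the second model for values set side by side. The authors deposited FPKM values per gene, per the file headers, 1 table per model. The submitters' processing notes name TopHat2 2.0.8, Cufflinks 2.2.1 and GRCm38. Strand use, filters and scaling between libraries are not given in the sources used here, and the absolute depth cannot be recovered, which leaves out intervals for counting error. Of the first table, 8 columns of other samples were not used. Of 38283 identifiers, 36425 were in GENCODE M21.

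From the FPKM, log2(FPKM + 1) was tested with limma 3.58.1 in R 4.3.3 (lmFit, eBayes with a variance trend, two-sided) over genes averaging 1 FPKM or more, with Benjamini-Hochberg adjustment at 0.05 over all genes tested. The log2 scale with this pseudocount understates changes of low genes. Single genes were also tested by exact permutation over the 35 relabellings. The fit was tested on simulated data of 15626 genes. It recovered 40 of 100 genes with a true log2 difference of 1 and 87 of 100 with one of 2. False calls numbered 5. A true log2 difference of 1 can thus go uncalled. The comparison, the members and the 33 gene lists were chosen with earlier results of these data known, so no test was made of a list and list counts stand beside those over all genes. The 2 list symbols without a row were Ahsp and Kcnq1ot1. Genes were named by a rule: Igf2 and H19, all members of the 5 acinar lists, the 4 members with the highest mean FPKM of every other list, and the 12 longer protein-coding genes of at least 5 FPKM with the lowest p in each direction. Alternatives covered the pseudocount, the filter, 2 scalings, gene classes, array weights, the variance trend, a replicate block and each library left out, and 1, leaving out mutant 2 and control 1 together, was chosen after seeing the data.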

Additional observations from a re-analysis of the deposited data

Results flagged for a closer look

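In the group of 4 control libraries, 209 values (named genes and list means) were checked for a library far from the other 3, and 10 were found. Chance flags about 1 in 20 such groups, so this number is not above what chance gives. Control 1 was low for the endothelial gene Pecam1 (6.81 FPKM, others 24.0 to 29.6) and the collagen gene Col1a2 (11.2 FPKM, others 29.4 to 30.7). Control 2 was high for Igf2 (144 FPKM, others 71.5 to 80.2) and low for the mitotic gene Prc1 (56.8 FPKM, others 76.7 to 81.0) and for Igf2bp3 (12.02 FPKM, others 16.01 to 16.7). Control 3 was low for Braf (43.7 FPKM, others 51.3 to 52.5). Control 4 was low for the trypsinogen genes Try10 (42.9 FPKM, others 70.9 to 75.2) and Try4 (75.9 FPKM, others 120 to 121), and high for Ldha (110 FPKM, others 94.1 to 96.1) and for the pan-epithelial list (mean log2 level 6.79, others 6.51 to 6.54). The groups of 3 mutant libraries are too small for this check.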

How the results depend on the processing

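Across 19 alternatives the acinar product genes with an unadjusted p under 0.05 numbered 30 to 39, and each of the 4 list medians stayed above 0. The number of genes past the adjusted threshold in limma was 11, with 0 among transcripts of at least 200 nt only and 0 among protein-coding genes only, where fewer genes were tested, 2 with the replicate block, 57 without mutant 2 and control 1, and 14 to 37 when 1 library was left out; for these last the cause was not tested. Among longer transcripts it was 0 to 1 when 1 library was left out and 1 without mutant 2 and control 1. That gene was Zfp618 without mutant 2 (adjusted p = 0.0088) and in the latter case (adjusted p = 0.0356), and the immunoglobulin gene Igkv16-104 without mutant 3 (adjusted p = 0.0366). Rescaling to the total of longer transcripts gave 131 higher and 1696 lower longer genes at an unadjusted p under 0.05, and medians of 0.97 for the acinar proteases and 0.69 for the lipases, amylases and nuclease. With the replicate block 211 longer genes were lower. The log2 difference of Igf2 turned to 0.12 without mutant 2 and to 0.06 without mutant 2 and control 1, and spanned -1.13 to 0.12 when 1 library was left out. Replicate numbers did not pair the samples: deviations of same-numbered libraries correlated at 0.09, -0.15 and 0.07 across 10337 genes. Among the single genes and the other list medians, 2 values passed the adjusted threshold only under an alternative, both of Zfp618, and 58 values moved by more than the spread between replicates. With a mean of at least 5 FPKM the mesothelial list had no gene left and gave no value. Depth is unknown, so genes of a few FPKM carry an error that cannot be stated.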
